A study of Bos taurus with 16 samples.

Results

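FAT1 (ENSBTAG00000020657) and FAT4 (ENSBTAG00000003345) encode atypical cadherins, very large transmembrane proteins with long arrays of cadherin repeats outside the cell. Both genes were taken by name, as 2 of the 19454 bovine Ensembl genes in the count table, and each was followed through all 16 libraries. Fat cadherins bind Dachsous cadherins on neighboring cells, and through such contacts they orient cells within the plane of a tissue. In flies Fat also acts upstream of the Hippo kinases, which keep the growth-promoting co-activator Yorkie (YAP and TAZ in vertebrates) out of the nucleus. In mammals FAT4 is the receptor that pairs with DCHS1 and takes part in shaping the skeleton and other organs, whereas FAT1 is best known for binding Ena/VASP proteins and for its role in actin organization and cell migration.

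Superficial zone articular chondrocytes, the cells at the joint surface that make the lubricant lubricin, were taken from knee joints of 4 calves aged 1 to 2 weeks. Lentivirus brought in either shCreb5, directed at the transcription factor Creb5, or the control hairpin shScramble, and infected cells were selected with 0.8 µg/ml puromycin for 5 days. The selected cells were replated on low attachment plates with 10% FBS and kept for 48 hours. The medium held TGFα at 100 ng/ml in all cases (condition A), and in condition AB also TGFβ2 at 20 ng/ml. Each calf gave 1 RNA-Seq library for each of the 4 combinations, so every group held 4 libraries. TGFα was therefore present in every library, and a change with TGFβ2 is a change on top of TGFα. Infection and selection came before the replating into A or AB, and whether the A and AB libraries of a calf and shRNA came from the same infected culture is not given in the sources used here.

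Between 14710867 and 21853634 counts per library were assigned to genes, with a median of 19721435. FAT1 had 6300 to 23489 counts in a library and FAT4 had 3173 to 18696. At this depth the relative counting error was at most 1.26% for FAT1 and 1.78% for FAT4, far below the spread of their levels between calves, where the coefficient of variation was 16.9% or more in each group. Expression is given as CPM, counts scaled to a common library total with edgeR's TMM factors, and changes are given as log2 ratios within calves. No gene length was used, so CPM of FAT1 and FAT4 are each compared across libraries and not with each other.

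CREB5 (ENSBTAG00000018909), the target of the shRNA, was examined first. With shScramble it had 124, 71.4, 77.8 and 104.6 CPM in calves 1 to 4 in condition A, and 83.0, 59.0, 62.6 and 78.7 CPM in condition AB. With shCreb5 it had 86.0, 44.7, 57.7 and 72.6 CPM in condition A, and 43.0, 36.2, 31.1 and 34.9 CPM in condition AB. The shCreb5 library lay below the shScramble library of its own calf in 8 of 8 pairs, and the groups overlapped in condition A and did not in condition AB. By edgeR's quasi-likelihood test CREB5 had a log2 fold change of -0.54 with a standard error of 0.079 in condition A (adjusted p = 0.337) and of -0.96 with a standard error of 0.10 in condition AB (adjusted p = 0.124). DESeq2 gave CREB5 adjusted p-values of 6.98e-05 and 1.02e-08 for the same comparisons, and over all alternatives they ranged up to 1.0 in condition A and 0.926 in condition AB. At least 44.4% of the control level of CREB5 remained in every pair, so the comparisons with shCreb5 measure a partial reduction. With TGFβ2 CREB5 fell in 4 of 4 calves in each shRNA, by -0.40 with shScramble (adjusted p = 0.0195 in edgeR) and by -0.82 with shCreb5 (adjusted p = 0.0036). The call with shScramble was lost without each calf in turn, where the change was -0.42 to -0.33 with adjusted p-values of 0.0557 to 0.0627 in edgeR. Over all alternatives the adjusted p ranged from 0.00337 to 0.365 with shScramble and from 4.38e-06 to 0.0782 with shCreb5.

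The labelled cell type was checked with marker genes. Both superficial zone markers, CREB5 and PRG4, were matched. PRG4, which encodes lubricin and marks the superficial zone, had 2463 to 18906 CPM over the 8 libraries of condition A and 6375 to 58474 CPM over the 8 of condition AB. HAPLN1, the link protein of cartilage matrix, had 18545 counts or more in every library. Of the other 6 listed chondrocyte markers none could be matched to an identifier here. For other cell types, 2 of 5 fibroblast and synovial lining markers (COL3A1 and THY1), 1 of 3 endothelial markers (VWF), 1 of 3 leukocyte markers (CD68), 0 of 2 adipocyte markers and 0 of 2 hypertrophic chondrocyte markers were matched, and none of the matched ones was at 0 in a library. VWF had 41 to 361 counts per library and CD68 had 20 to 1325. These are bulk libraries, so fewer cells of a type and less RNA per cell cannot be told apart for FAT1, FAT4 or any marker.

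In condition A, FAT1 had 943, 410.0, 621 and 730.0 CPM in the shScramble libraries of calves 1 to 4, and 755, 296, 447 and 612 CPM in their shCreb5 libraries. In condition AB it had 644, 513, 566 and 754 CPM with shScramble and 536, 423, 487 and 633 CPM with shCreb5. Calf 2 gave the lowest FAT1 value in each of the 4 groups, calf 1 gave the highest in condition A and calf 4 the highest in condition AB. Mean FAT1 in condition A was 676 ± 222 CPM (SD over 4 calves) for shScramble against 528 ± 199 CPM for shCreb5, and in condition AB it was 619 ± 105 against 519.9 ± 88.6 CPM. All 4 ranges of FAT1 overlapped.

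FAT4 had 750.4, 346, 949 and 693 CPM in the shScramble libraries of calves 1 to 4 in condition A, and 639, 248, 534 and 396 CPM in their shCreb5 libraries. With TGFβ2 it had 424, 207, 502 and 456 CPM with shScramble and 391, 171, 312 and 209 CPM with shCreb5. Within every calf the shScramble library of condition A was the highest and the shCreb5 library of condition AB the lowest. The libraries with 1 of the 2 agents lay between them, with shCreb5 in condition A above shScramble in condition AB in calves 1, 2 and 3 and below it in calf 4. Group means of FAT4 were 684 ± 251 CPM (SD, n = 4) for shScramble and 454 ± 169.6 CPM for shCreb5 in condition A, and 397 ± 131 and 271 ± 99.8 CPM in condition AB. The groups overlapped, and calf 2 was the lowest of the 4 calves in every group for FAT4 as it was for FAT1.

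**Figure D1:**
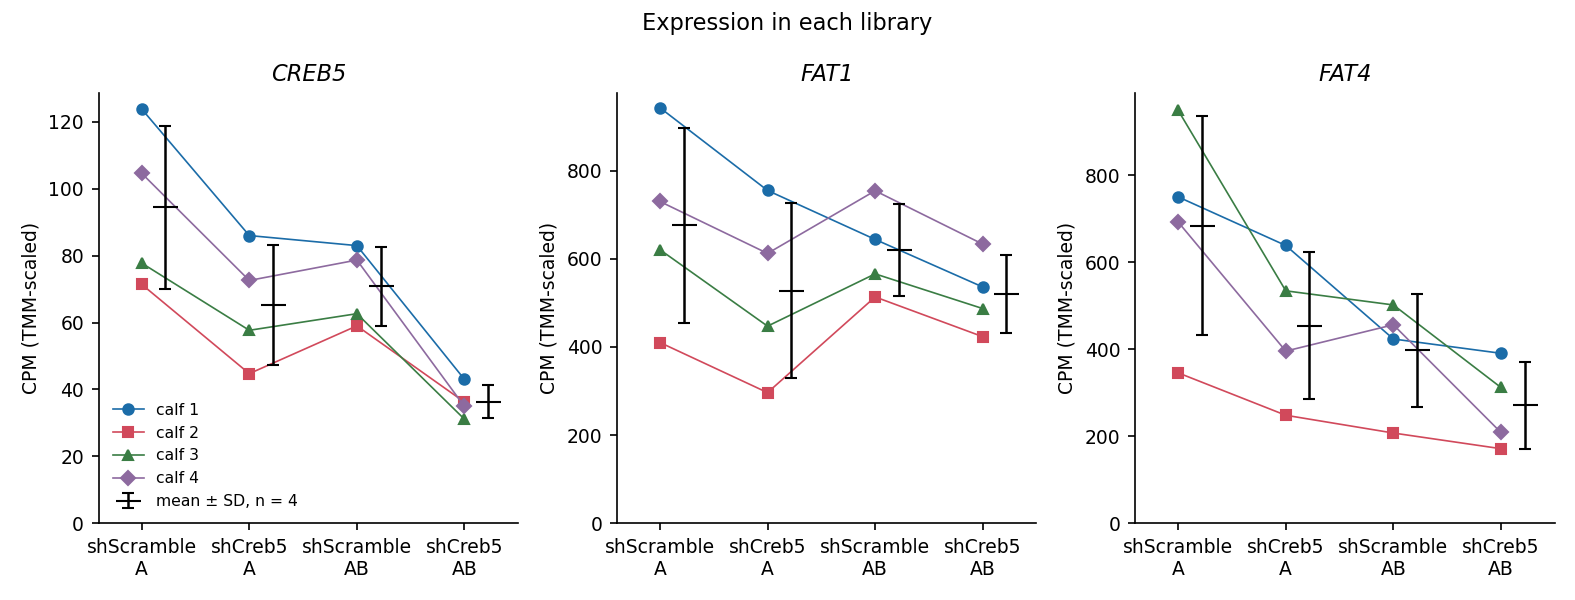
Expression of CREB5, FAT1 and FAT4 in CPM (linear axes from 0) in each of the 16 libraries, with 1 line per calf and the mean ± SD of the 4 calves in black. Mean FAT4 was 684 CPM for shScramble in condition A and 271 CPM for shCreb5 in condition AB, whereas the lines of FAT1 cross, with 943 and 536 CPM in these groups for calf 1 and 410.0 and 423 CPM for calf 2.

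The low position of calf 2 was shared by the superficial zone marker. PRG4 in calf 2 was the lowest of the 4 calves in each group, with 4307 CPM against 9565 to 18906 CPM in the other calves for shScramble in condition A. HAPLN1 in calf 2 was the highest of the 4 calves in each group, with 7552 CPM against 1260.0 to 2649 CPM for shScramble in condition A. The part of these differences between calves in the FAT1 and FAT4 levels was not tested, and the comparisons that follow are within calves.

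The first question was how FAT1 and FAT4 differed between shCreb5 and shScramble cells in TGFα alone. In condition A all 4 calves had less FAT1 with shCreb5, by log2 changes of -0.32, -0.47, -0.47 and -0.25 in calves 1 to 4. Its edgeR log2 fold change was -0.38 (standard error 0.095, 95% interval -0.61 to -0.15), which is 76.9% of the control level. FAT4 was lower in 4 of 4 calves as well, by -0.23, -0.48, -0.83 and -0.81, with an edgeR log2 fold change of -0.59 (standard error 0.13, 95% interval -0.89 to -0.28), or 66.6% of the control level. The changes of FAT1 lay close together over the calves, whereas those of FAT4 were small in calf 1 and large in calves 3 and 4. Neither gene passed adjustment over the 12922 genes tested, where edgeR's quasi-likelihood test gave an adjusted p of 0.509 for FAT1 and 0.509 for FAT4. No gene of the 12922 passed with edgeR, 1144 had an unadjusted p under 0.05, limma-voom called 0 and DESeq2 called 79. FAT1 and FAT4 were both among the genes lower with an unadjusted p under 0.05, which were 4.41% of the genes tested, and among those lower in 4 of 4 calves, which were 8.5%. With DESeq2 both genes passed in condition A, with adjusted p-values of 0.018 for FAT1 and 0.0108 for FAT4. Over all alternatives the adjusted p ranged from 0.018 to 1.0 for FAT1 and from 0.0108 to 1.0 for FAT4. The 2 genes were chosen with their knockdown results in these libraries known, so their direction is a description and not independent evidence.

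In the presence of TGFβ2 the same comparison gave smaller changes for FAT1, with -0.26, -0.28, -0.22 and -0.25 in calves 1 to 4. The edgeR log2 fold change of FAT1 was -0.25 (standard error 0.091, 95% interval -0.47 to -0.04), or 83.9% of the control level. FAT4 changed by -0.12, -0.28, -0.69 and -1.13 in the same calves, with an edgeR log2 fold change of -0.55 (standard error 0.17, 95% interval -0.96 to -0.15), or 68.2% of the control level. The FAT4 estimate rested partly on calf 4, and without that calf it was -0.36. Neither gene passed with edgeR's quasi-likelihood test (adjusted p = 0.584 for FAT1 and 0.584 for FAT4) or with DESeq2 (adjusted p = 0.651 and 0.264). Over all alternatives the adjusted p ranged from 0.328 to 1.0 for FAT1 and from 0.264 to 1.0 for FAT4. No gene of 12664 passed with edgeR, 1078 had an unadjusted p under 0.05, limma-voom called 1 and DESeq2 called 55. FAT1 and FAT4 were both among the 4.47% of genes that were lower with an unadjusted p under 0.05 and the 9.17% that were lower in 4 of 4 calves.

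Since both libraries of a calf and shRNA may share an infected culture and would then not be separate replicates of the knockdown, the counts of the 2 conditions were also summed before testing. FAT1 then had an edgeR log2 fold change of -0.32 (standard error 0.076, 95% interval -0.50 to -0.14) and FAT4 of -0.56 (standard error 0.13, 95% interval -0.88 to -0.24). Single calves are given as the mean of their log2 changes in the 2 conditions, not from the summed counts. By this mean 83.9% of control FAT1 and 51.1% of control FAT4 were measured in calf 4, against 81.7% and 88.6% in calf 1. By edgeR's quasi-likelihood test the adjusted p was 0.611 for FAT1 and 0.611 for FAT4 among 13607 genes, of which 0 passed and 993 had an unadjusted p under 0.05. Both genes were among the 4.09% of genes lower with an unadjusted p under 0.05. DESeq2 called 79 genes and limma-voom 1, and DESeq2 gave adjusted p-values of 0.0121 for FAT1 and 0.0237 for FAT4. The adjusted p over all alternatives lay between 0.0121 and 1.0 for FAT1 and between 0.0237 and 1.0 for FAT4.

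The size of the FAT4 change did not follow that of CREB5 over the calves in condition A, where CREB5 changed by -0.53, -0.67, -0.43 and -0.53 in calves 1 to 4. The largest CREB5 change was in calf 2 and the largest FAT4 change, -0.83, in calf 3, the calf with the smallest CREB5 change. In condition AB the largest change of both genes was in calf 4, with -1.17 for CREB5 and -1.13 for FAT4. Calf 1, with -0.95 for CREB5, had only -0.12 for FAT4. With 4 calves no relation between these sizes was tested.

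**Figure D2:**
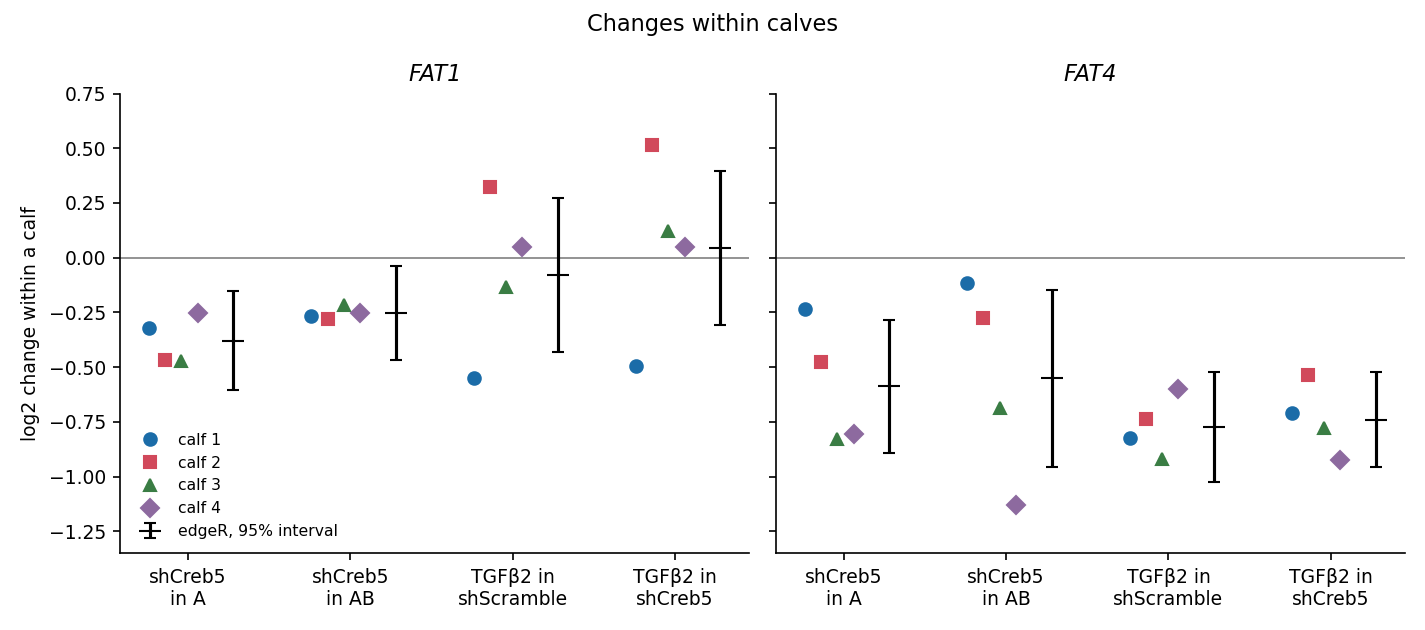
Log2 change of FAT1 and FAT4 within each calf for shCreb5 against shScramble in conditions A and AB and for condition AB against A in each shRNA, with the edgeR estimate and its 95% interval in black. FAT4 was below 0 in 16 of 16 pairs, with TGFβ2 changes from -0.92 to -0.53. FAT1 was below 0 in the 8 pairs of shCreb5 and shScramble and ran from -0.55 to 0.51 with TGFβ2.

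The second question was how each gene differed with and without TGFβ2. FAT4 fell with TGFβ2 in 4 of 4 calves in shScramble cells, by -0.82, -0.74, -0.92 and -0.60 on the log2 scale in calves 1 to 4. Its edgeR log2 fold change was -0.77 (standard error 0.11, 95% interval -1.02 to -0.52), which is 58.5% of the level without TGFβ2 (95% interval 49.2% to 69.7%). The adjusted p was 0.00262 from edgeR's quasi-likelihood test, in a comparison where 2556 of 12879 genes passed, 1378 higher and 1178 lower. FAT4 was thus among 9.15% of genes that fell by this rule, and among 20.1% that were lower in 4 of 4 calves. The shScramble groups of FAT4 overlapped, since the 346 CPM of calf 2 without TGFβ2 lay below 3 of the 4 values with it. FAT4 was therefore not among the 4.12% of genes that were lower with no overlap between the groups. The call needed the calf as a block, and in a model with no calf term the adjusted p was 0.321, in a range over all alternatives from 2.73e-11 to 0.321.

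In shCreb5 cells FAT4 fell by a like amount, by -0.71, -0.53, -0.78 and -0.92 in calves 1 to 4. The edgeR log2 fold change was -0.74 (standard error 0.094, 95% interval -0.96 to -0.52), or 59.8% of the level without TGFβ2 (95% interval 51.5% to 69.6%). The adjusted p was 0.00175 from edgeR's quasi-likelihood test, where 3884 of 12769 genes passed, 2027 higher and 1857 lower. By this rule 14.5% of genes fell, 24.1% were lower in 4 of 4 calves, and 5.25% were lower with no overlap, a class that did not include FAT4. Without the calf in the model the adjusted p of FAT4 was 0.28, and over all alternatives it ranged from 3.65e-11 to 0.28. The number of genes called depended on the calves: it was 1366 without calf 3 in shScramble cells, and 2408 without calf 3 and 1962 without calf 4 in shCreb5 cells. FAT4 passed without each calf in turn, with adjusted p-values from 0.00366 to 0.0203 in shScramble and from 0.00147 to 0.0117 in shCreb5 cells.

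FAT1 had no common direction with TGFβ2. In shScramble cells it changed by -0.55, 0.32, -0.13 and 0.05 in calves 1 to 4, and in shCreb5 cells by -0.49, 0.51, 0.12 and 0.05. The edgeR log2 fold change was -0.08 in shScramble cells (standard error 0.15, 95% interval -0.43 to 0.27, adjusted p = 0.763) and 0.04 in shCreb5 cells (standard error 0.15, 95% interval -0.31 to 0.39, adjusted p = 0.853). The intervals correspond to 74.2% to 121% and to 80.8% to 131% of the level without TGFβ2. The sign of the estimate rested on single calves. In shScramble cells it was 0.08 without calf 1, and in shCreb5 cells it was -0.11 without calf 2.

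Within calves 1 and 2, picked here for their large changes, FAT1 moved in the same direction in both shRNAs. A choice by size makes a shared sign likely, so this is a description. The TGFβ2 changes in shScramble and in shCreb5 cells come from separate libraries of the same calf, and in calf 1 they were -0.55 and -0.49 and in calf 2 they were 0.32 and 0.51. In calf 4 both were 0.05, and in calf 3 they had opposite signs. In CPM, FAT1 of calf 1 was 943 without and 644 with TGFβ2 in shScramble cells and 755 and 536 in shCreb5 cells, and FAT1 of calf 2 was 410.0 and 513, and 296 and 423.

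The calves lay closer together in FAT1 with TGFβ2 than without it. The highest calf had 2.30 times the FAT1 of the lowest with shScramble in condition A and 1.47 times in condition AB, and with shCreb5 2.55 and 1.496 times. The SD of log2 CPM over the 4 calves went from 0.50 to 0.24 with shScramble and from 0.59 to 0.24 with shCreb5, ratios of 0.48 and 0.42. Over the 13372 genes that passed the filter the median ratio was 0.86 with shScramble and 1.07 with shCreb5, and 12% and 4.34% of genes had a lower ratio than FAT1. The narrowing of FAT1 uses the same values as its fall in calf 1 and its rise in calf 2. CREB5 also had lower ratios, 0.65 with shScramble and 0.47 with shCreb5, and 27.8% and 6.36% of genes were below these. FAT4 showed no such narrowing, with ratios of 0.93 and 0.91. These ratios rest on 4 calves and were not tested.

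**Figure D3:**
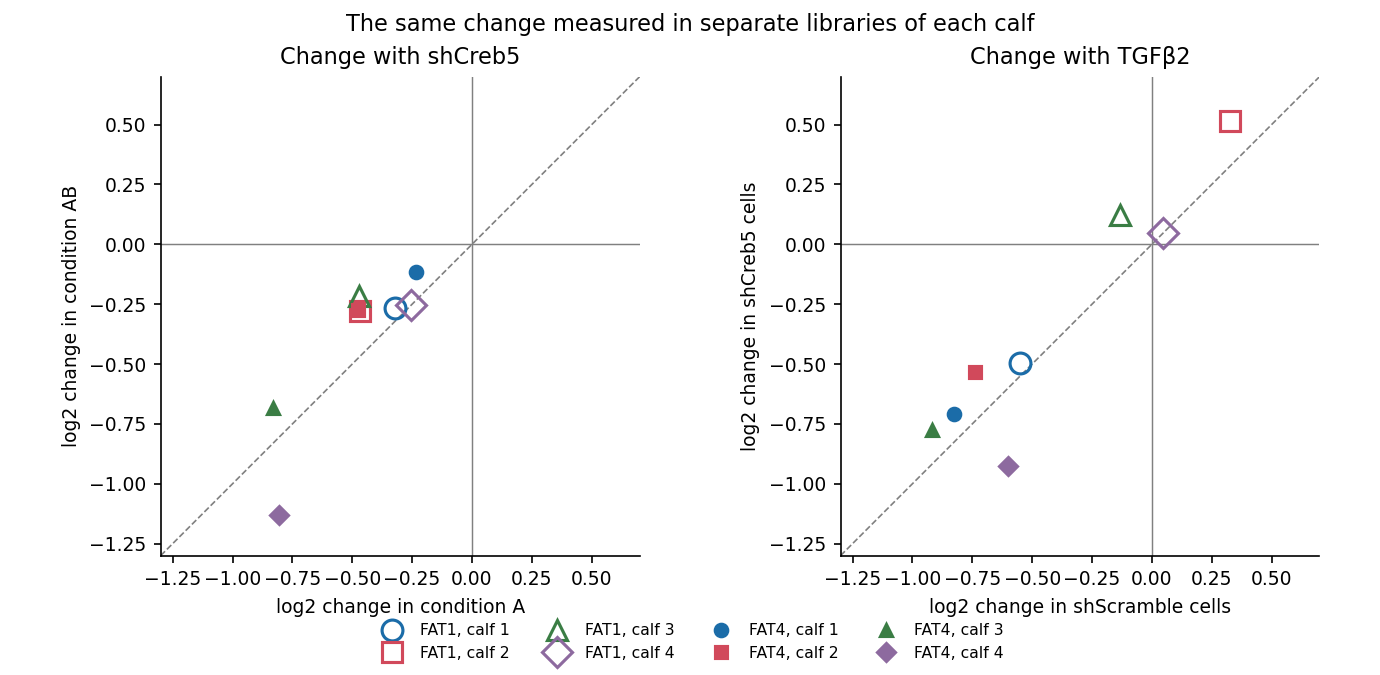
Each point is a gene in 1 calf, open for FAT1 and filled for FAT4, and both axes are log2 changes from separate libraries, with the dashed line marking equal changes. On the left is the change with shCreb5 in condition A against that in condition AB, with FAT4 of calf 4 at -0.81 and -1.13. On the right is the change with TGFβ2 in shScramble against shCreb5 cells, where FAT1 of calf 1 is at -0.55 and -0.49, FAT1 of calf 2 at 0.32 and 0.51, and FAT4 of all 4 calves lies between -0.92 and -0.53.

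Whether the effect of shCreb5 differed between the conditions, which is the same number as whether the effect of TGFβ2 differed between the shRNAs, was tested with an interaction term over all 16 libraries. The difference was 0.12 for FAT1 (standard error 0.21, 95% interval -0.34 to 0.58) and 0.04 for FAT4 (standard error 0.21, 95% interval -0.41 to 0.49) on the log2 scale. Neither passed with edgeR's quasi-likelihood test (adjusted p = 0.981 for FAT1 and 0.996 for FAT4). The shCreb5 effect on FAT1 was smaller with TGFβ2 in calves 1, 2 and 3, by 0.06, 0.19 and 0.26, and the same to within counting error in calf 4, where the gap was 0.0015 and the counting error 0.026. For FAT4 it was smaller in calves 1, 2 and 3, by 0.12, 0.20 and 0.14, and larger in calf 4, at -0.32. Without calf 2 the FAT4 estimate was -0.02, so its sign was not fixed. This model had the calf as its only block, so a TGFβ2 response particular to a calf, which was large for FAT1, was part of its error. A model with terms of calf with shRNA and of calf with TGFβ2 was added after the data were seen, and its error is the spread of the differences within calves. It gave 0.13 for FAT1 (standard error 0.11, adjusted p = 0.669) and 0.035 for FAT4 (standard error 0.12, adjusted p = 0.936) by edgeR's quasi-likelihood test. Over all alternatives the adjusted p ranged from 0.669 to 1.0 for FAT1 and from 0.936 to 1.0 for FAT4. Of 13372 genes 0 passed with edgeR, 4.27% had an unadjusted p under 0.05, which included neither FAT1 nor FAT4, limma-voom called 0 and DESeq2 called 9. The model with the added terms called 0 as well, with 1695 at an unadjusted p under 0.05.

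Set against shScramble cells in TGFα alone, cells with both shCreb5 and TGFβ2 kept 52.1%, 49.5%, 32.9% and 30.1% of FAT4 in calves 1 to 4. The same libraries kept 56.9%, 103%, 78.5% and 86.8% of FAT1. For CREB5 the values were 34.7%, 50.7%, 40.0% and 33.4%. FAT4 was thus at 52.1% of the control level or less in every calf, while FAT1 was near that level in calf 2 and furthest below it in calf 1. All these percentages share the shScramble libraries of condition A.

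The FAT4 to FAT1 count ratio within a library does not depend on library size or scaling and shows unequal change of the 2 genes. In shScramble cells the log2 ratio was -0.33, -0.25, 0.61 and -0.08 in calves 1 to 4 in condition A and -0.60, -1.31, -0.17 and -0.73 in condition AB. In shCreb5 cells it was -0.24, -0.26, 0.26 and -0.63 in condition A and -0.46, -1.31, -0.64 and -1.60 in condition AB. The ratio was lower with TGFβ2 in 4 of 4 calves for each shRNA, with the largest drop in calf 2 and the smallest in calf 1, where FAT1 was lower too.

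The mean change of the log2 ratio with TGFβ2 was -0.69 (SD 0.33, n = 4 calves) in shScramble and -0.78 (SD 0.38, n = 4) in shCreb5 cells. Each had p = 0.125 in an exact two-sided sign-flip test over the calves, the smallest p that 4 calves allow, and after adjustment over the 6 such exact tests 0.375. With shCreb5 the mean change was -0.21 (SD 0.30) in condition A and -0.30 (SD 0.47) in condition AB, with exact sign-flip p-values of 0.375 and 0.5 and an adjusted p of 0.5 for each. In calves 3 and 4 the ratio was lower with shCreb5, by -0.36 and -0.55 in condition A and -0.47 and -0.88 in condition AB. In calf 1 it was higher, by 0.09 and 0.15, and in calf 2 it moved by -0.0093 and 0.0030. Without calf 4 the means were -0.09 and -0.11.

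**Figure D4:**
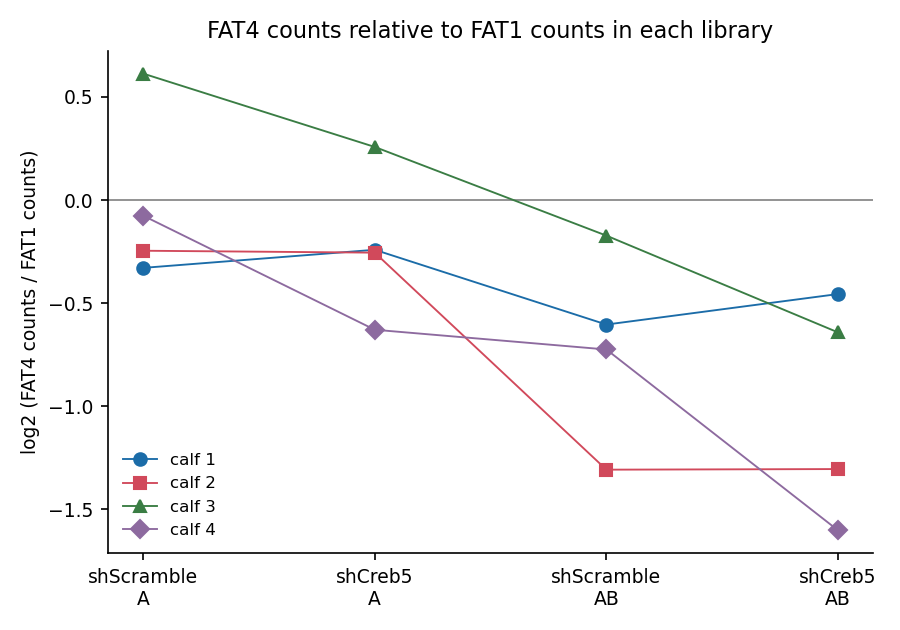
Log2 of FAT4 counts over FAT1 counts in each library, with 1 line per calf and the 4 groups along the horizontal axis. All 4 calves were lower in condition AB than in condition A of the same shRNA. With shCreb5, calves 3 and 4 were lower (calf 4 at -0.63 against -0.08 and at -1.60 against -0.73) and calves 1 and 2 moved by 0.15 or less.

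The variation of log2 CPM over the 16 libraries was divided into shares of the sum of squares for calf, shRNA, TGFβ2 and their combinations. For FAT1 the calf took 65.5%, shRNA 15.6%, TGFβ2 0.035% and the combination of calf and TGFβ2 17.5%. For FAT4 the calf took 47.8%, shRNA 16.8%, TGFβ2 29.5% and the combination of calf and TGFβ2 0.30%. The 2 genes thus had like shares for shRNA and differed in how TGFβ2 entered. In FAT4 it entered as a common shift. In FAT1 the shifts were largest in calves 1 and 2, where they had opposite directions.

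The median gene of 13372 had 46.3% for calf, 2.38% for shRNA, 11.7% for TGFβ2 and 6.85% for calf with TGFβ2. A larger shRNA share than that of FAT1 was found for 7.73% of genes, and than that of FAT4 for 6.67%. For the share of calf with TGFβ2, 14.8% of genes exceeded FAT1 and 99.0% exceeded FAT4. The combination of calf and shRNA took 5.03% for FAT4 and 0.34% for FAT1, where the median gene had 7.90%. These shares are descriptions with no test.

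**Figure D5:**
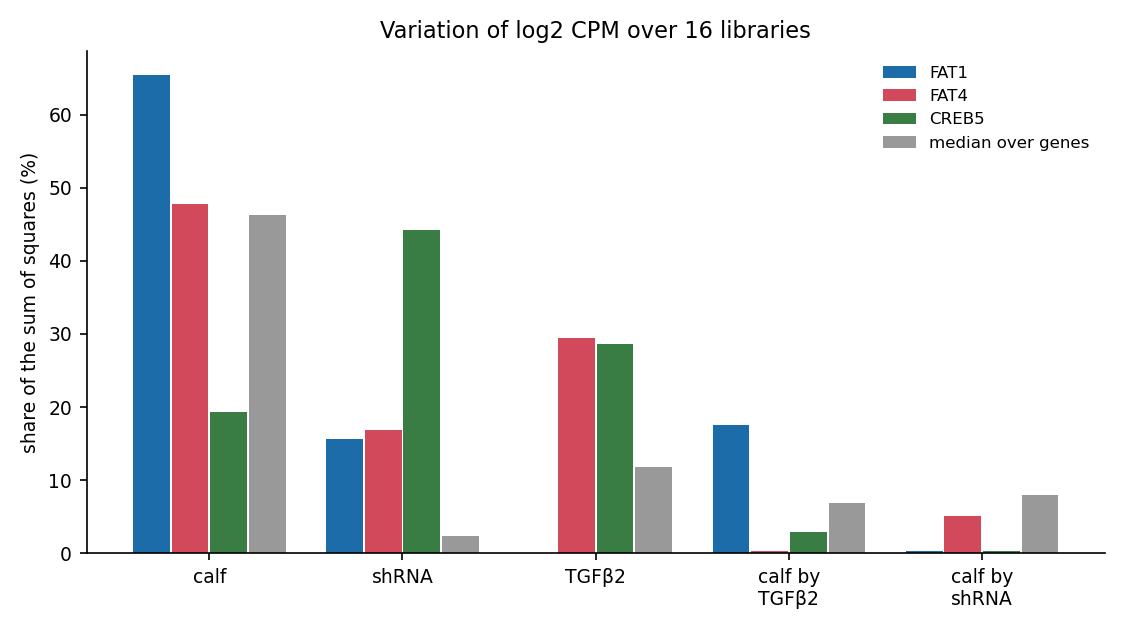
Share of the sum of squares of log2 CPM over 16 libraries, in percent, for calf, shRNA, TGFβ2 and the combinations of calf with each, with bars for FAT1, FAT4, CREB5 and the median over 13372 genes taken separately for each share. FAT4 has 29.5% for TGFβ2 where FAT1 has 0.035%, and FAT1 has 17.5% for calf by TGFβ2 where FAT4 has 0.30%.

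Markers of other cell types moved with TGFβ2 in the comparisons in which FAT4 fell. VWF, the matched endothelial marker, had 9.95, 6.54, 9.59 and 4.15 CPM in calves 1 to 4 with shScramble in condition A and 5.01, 3.96, 4.15 and 2.82 CPM in condition AB. With shCreb5 it had 10.4, 11.5, 19.5 and 8.31 CPM in condition A and 4.46, 5.07, 3.84 and 2.52 CPM in condition AB. VWF fell in both shRNAs, with log2 fold changes of -0.89 and -1.60 (adjusted p = 0.00773 and 0.00201 by edgeR's quasi-likelihood test). CD68, the matched leukocyte marker, had 3.77, 3.56, 24.2 and 7.84 CPM with shScramble in condition A and 1.32, 2.86, 15.3 and 3.28 CPM in condition AB. With shCreb5 it had 4.28, 4.42, 71.6 and 16.5 CPM in condition A and 1.13, 3.29, 15.2 and 3.32 CPM in condition AB. CD68 fell too, with -0.90 and -1.80 (adjusted p = 0.0194 and 0.00423 from edgeR).

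The fibroblast markers and PRG4 moved the other way with TGFβ2. PRG4 rose in 4 of 4 calves in each shRNA, by 1.94 and 1.91 (adjusted p = 0.00113 and 0.00126 in edgeR), where FAT4 fell. COL3A1 had group means of 4084 and 9136 CPM without and with TGFβ2 in shScramble cells and 3373 and 7746 CPM in shCreb5 cells, and rose by 1.18 and 1.17 (adjusted p = 0.00356 and 0.000823 by edgeR's quasi-likelihood test). THY1 had 77.9, 23.8, 40.9 and 71.6 CPM in calves 1 to 4 with shScramble in condition A and 219.9, 58.3, 141 and 158 CPM in condition AB. With shCreb5 it had 125, 28.6, 116 and 252 CPM in condition A and 263, 47.2, 315 and 533 CPM in condition AB. THY1 rose with TGFβ2 by 1.43 and 1.08 (adjusted p = 0.00033 and 0.00118 in edgeR). COL3A1, THY1, VWF and CD68 each moved in the same direction in 4 of 4 calves in both TGFβ2 comparisons, and their part in the fall of FAT4 was not tested.

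A marker of each of these 3 cell types was also higher with the knockdown in condition A, where FAT1 and FAT4 were lower in 4 of 4 calves. THY1, VWF and CD68 were each higher with shCreb5 in 4 of 4 calves, by 1.08, 0.72 and 0.86 on the log2 scale, and like all genes tested in this comparison none passed with edgeR's quasi-likelihood test (adjusted p = 0.509, 0.509 and 0.519). Markers were matched only through symbols, which favor genes that differ between the shRNAs. By this test 33.3% of genes with a symbol and 1.27% of those without had an unadjusted p under 0.05. The values of matched markers with shCreb5 therefore say nothing on the cell types as a whole. COL3A1 was higher in 2 of 4 calves, with -0.27. PRG4, the marker of the superficial zone itself, was lower in 4 of 4 calves, as FAT1 and FAT4 were, with -0.63 (adjusted p = 0.502 in edgeR) and group means of 11335 and 7656 CPM. The study describes PRG4 as a target of Creb5, which binds its enhancers and is needed to induce it. The other superficial zone marker, CREB5, is the target of the shRNA. Changes of PRG4 and CREB5 with shCreb5 are therefore not read as changes of cell type. CD68 was highest in calves 3 and 4, which were also the calves with the largest FAT4 change. Those 2 calves also had the largest THY1 difference, with 40.9 against 116 CPM in calf 3 and 71.6 against 252 CPM in calf 4. HAPLN1, the chondrocyte marker, was lower with shCreb5 in the same 2 calves, with 2251 against 1002 CPM in calf 3 and 2649 against 1431 CPM in calf 4. It was higher in calves 1 and 2, with 1260.0 against 1849.7 CPM and 7552 against 8259 CPM (-0.34 over the calves, adjusted p = 0.728 in edgeR).

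In condition AB, THY1 had 0.72 and was higher with shCreb5 in 3 of 4 calves, VWF had -0.013 and was higher in 1, and CD68 had 0.0082 and was higher in 2. PRG4 had -0.65 and was lower in 3 of 4 calves (adjusted p = 0.584 in edgeR), with group means of 43848 and 31722 CPM. In calves 3 and 4, where FAT4 changed by -0.69 and -1.13, CD68 of shScramble and shCreb5 cells was 15.3 and 15.2 CPM and 3.28 and 3.32 CPM, whereas THY1 was 141 and 315 CPM and 158 and 533 CPM. HAPLN1 in these calves was 1841 and 1680.2 CPM and 2007 and 2193 CPM. The part of these markers in the lower FAT1 and FAT4 of shCreb5 cells was not tested.

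The genes whose pattern was most like that of each gene were found by Pearson correlation of log2 CPM over the 16 libraries after the mean of each calf was subtracted. These points share calves and treatments, so the coefficients are descriptions with no p. Symbols were at hand for 3129 genes, and these differ between the shRNAs more often than the rest. In condition A 33.3% of the tested genes with a symbol and 1.27% of those without had an unadjusted p under 0.05, which limits the neighbors of FAT1 and FAT4 that can be named. The 5 named genes most like FAT1 were TMEM158 (r = 0.935), CAMK2N1 (0.848), TXNDC15 (0.827), the cAMP phosphodiesterase gene PDE7A (0.815) and the metalloproteinase gene MMP23 (0.807), with 0 unnamed genes above the fifth.

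Those most like FAT4 were the chemokine gene CCL20 (r = 0.977), USP54 (0.960), GDF10, which encodes a ligand of the TGFβ family (0.958), JADE2 (0.954) and PLPPR4 (0.948), with 2 unnamed genes above the fifth. Genes chosen in this way share the treatment changes of FAT1 or FAT4 by their choice, so their own changes are not given as results. The neighbors of both genes depended on the subtraction, and without it 0 of the 5 were kept for FAT1 and 0 of the 5 for FAT4. Those of FAT4 also depended on the coefficient, since Spearman correlation kept 1 of the 5, against 4 of the 5 for FAT1. FAT1 and FAT4 had r = 0.434 with each other. CREB5 had r = 0.895 with FAT4, rank 118 of 13371 genes, and r = 0.604 with FAT1, rank 171.

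Of the 7 Fat and Dachsous family genes listed (FAT1 to FAT4, DCHS1, DCHS2 and the kinase gene FJX1), 3 had a matched identifier, FAT1, FAT3 and FAT4. FAT3 (ENSBTAG00000004081), a further Fat cadherin, was near the limit of detection in condition A, with 7 to 56 counts per library, and had 21 to 126 counts in condition AB. FAT3 had more counts in condition AB than in condition A of the same calf and shRNA. The share of all genes higher in 4 of 4 calves was not counted. In calves 1 to 4 with shScramble it had 10, 49, 7 and 25 counts in condition A. In condition AB these calves had 73, 55, 84 and 126 counts. With shCreb5 the counts were 8, 56, 11 and 9 in condition A and 61, 64, 21 and 27 in condition AB. Several libraries of condition A lay near or below 10 counts, so no fold change or test of FAT3 is given as a result. In calf 2, the calf with the most FAT3 in condition A, the difference was small, with 2.36 and 2.86 CPM in shScramble and 2.63 and 3.45 CPM in shCreb5 cells. The size of the FAT3 difference thus came from the other calves, which had 0.36 to 1.13 CPM in condition A. Over all genes tested, 10.7% rose and 9.15% fell with TGFβ2 in shScramble cells and 15.9% rose and 14.5% fell in shCreb5 cells. List members could be matched only among genes with a symbol, of which 16.2% rose and 12.6% fell in shScramble and 25.7% rose and 19.9% fell in shCreb5 cells. With shCreb5 the main edgeR fit, with its filter on low counts, called none of the genes tested in either condition. No count of called list members is therefore given for the knockdown. None of 5 listed partners of FAT proteins inside the cell (ENAH, VASP, EVL, AMOTL1 and LIX1L) had a matched identifier.

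The pathways next to the Fat cadherins were covered only in part, so only counts and values are given. Among 12 planar polarity genes, 2 were matched. VANGL1, a core planar polarity protein, rose with TGFβ2 in shScramble cells by 0.69 (adjusted p = 0.0446 from edgeR) and had 0.44 in shCreb5 cells (adjusted p = 0.146), and PRICKLE2 had 0.19 and 0.10 and was not called with TGFβ2. Of 15 Hippo kinase and scaffold genes 8 were matched, and with TGFβ2 2 of the 8 fell in each shRNA, beside 12.6% and 19.9% of genes with a symbol, and 0 rose, beside 16.2% and 25.7%. The median log2 fold change of the 8 was -0.10 and 0.07, against 0.013 and 0.075 over genes with a symbol and -0.0050 and -0.0057 over all genes tested. The genes that fell were MOB1B, a LATS co-activator, in both shRNAs (-0.68 and -0.74, adjusted p = 0.0027 and 0.00397 from edgeR), the scaffold gene SAV1 in shScramble cells (-0.35, adjusted p = 0.0452) and the kinase gene STK4 in shCreb5 cells (-0.47, adjusted p = 0.0314). The kinase gene LATS1 had -0.08 and 0.16 and was not called, and neither was LIMD1, the only matched gene of 3 Hippo inhibitors.

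Of 22 YAP/TAZ target genes 7 were matched, and with TGFβ2 2 rose and 1 fell in shScramble cells and 1 rose and 4 fell in shCreb5 cells. Of genes with a symbol 16.2% rose and 12.6% fell in shScramble and 25.7% rose and 19.9% fell in shCreb5 cells, and the medians of the 7 were -0.27 and -0.40 beside 0.013 and 0.075. CCN2, a widely used YAP/TAZ target, had 0.09 and 0.40 and was not called, whereas CCDC80 rose and IGFBP3 fell in both shRNAs. With shCreb5 in condition A, CCN2 had -0.69 and the other 6 were above 0, from 0.31 for MYOF to 0.94 for CCDC80, and in condition AB CCN2 had -0.39, RBMS3 -0.028 and the other 5 from 0.18 to 0.45. These 7 were matched only through symbols, which favor genes that differ between the shRNAs. Their values with shCreb5 are therefore not set beside all genes and say nothing on YAP/TAZ targets as a set. For YAP1, WWTR1 and the TEAD genes, 0 of 8 identifiers were matched. Among 8 classical cadherins 4 were matched, and CDH11, the mesenchymal cadherin, fell with TGFβ2 as FAT4 did, by -1.16 and -0.92 (adjusted p = 0.00159 and 0.00391 from edgeR), as did CDH3, by -0.64 and -1.08. These were 2 of 3 classical cadherins tested in shScramble and 2 of 4 in shCreb5 cells, beside 12.6% and 19.9% of genes with a symbol. CDH13 had 0.06 and -0.08 and was not called, and CDH1, with 3 to 226 counts, was tested with TGFβ2 only in shCreb5 cells and not called.

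The limits of the FAT1 and FAT4 results lie in the design. Each group held 4 calves, all hairpin differences rest on the same 4 calves, and both TGFβ2 comparisons use the same calves. The comparison of conditions within an shRNA shares its libraries with the knockdown comparisons, so the values given side by side are not independent. An effect of the shCreb5 construct on FAT1 or FAT4 through Creb5 and one through other targets of the hairpin cannot be told apart. All values are RNA at 48 hours in TGFα, and protein levels, cell contacts and Hippo activity were not analysed here.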

How the data were processed

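The values are estimated counts per gene that the authors made with Salmon and tximport in the bcbio-nextgen pipeline on the bovine build UMD3.1 and deposited as whole numbers, not scaled for library size. Groups and calf numbers came from the sample titles, doses and times from the labels, and age from the study's methods. All 16 libraries were used. R 4.3.3, edgeR 4.0.16, limma 3.58.1, DESeq2 1.42.0, Python 3.11.15 and scipy 1.17.1 were used. In each comparison genes passing filterByExpr were scaled with TMM, the model took the calf as a block, edgeR's quasi-likelihood test was applied, and p-values were adjusted by Benjamini-Hochberg over all genes tested, with a threshold of 0.05. The study's model also held the calf. Pairing was checked by the deviations of libraries from their group means. Their correlation across genes was 0.132 to 0.837 between libraries of the same calf (24 pairs, median 0.670). Over 72 pairs of different calves it was -0.516 to 0.204 (median -0.234), so the ranges overlapped. Deviations cancel within a group, which pushes the values between different calves towards negative ones. No pair of libraries in a group was a copy of another, with a chi-square per degree of freedom of at least 73.96 over 24 pairs. No other gene had the counts of FAT1 or of FAT4 in all libraries. CPM used TMM factors over all 16 libraries, and log2 CPM a prior count of 2.

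Named genes were FAT1, FAT4, CREB5, the members of lists of Fat and Dachsous genes, planar polarity, Hippo and YAP/TAZ genes, cadherins and cell type markers that were called, most abundant or closest to the Fat proteins, and the 5 named genes most like FAT1 and FAT4. The 2 members and the lists were chosen with earlier results of these data known. Symbols came from 1998 lines of each of a pair of supplementary tables, which favor genes that changed. Of 3129 identifiers with a symbol, 3085 had an Entrez number in RefSeq and 3041 the same symbol there. Gene positions and sequences were not used here. The methods were tested on simulated data.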

Additional observations from a re-analysis of the deposited data

Results flagged for a closer look

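In 36 sets of 4 values (log2 CPM of FAT1, FAT4 and CREB5 in each group, their changes and the FAT4 to FAT1 ratio over calves, and library totals), no calf lay far from the other 3, where chance gives 1.8 sets. Neither FAT1 nor FAT4 passed the interaction test, that is, the test of whether the shCreb5 effect differed between conditions A and AB.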

How the results depend on the processing

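The alternatives were DESeq2, RLE scaling, limma-voom, no filter on low counts, a floor of 10 counts per library, no replicate block, 1 fit of all 16 libraries, and each calf left out. FAT4 kept its negative sign under all of them in the 4 paired comparisons, and so did FAT1 in the knockdown comparisons. With no replicate block, that is without pairing by calf, FAT4 had -0.79 (adjusted p = 0.321) and -0.75 (adjusted p = 0.28) with TGFβ2 in shScramble and shCreb5 cells and was no longer called, FAT1 had -0.023 with TGFβ2 in shCreb5 cells in place of 0.04, and 202 and 194 genes were called. Those models put the spread between calves into the error. With DESeq2, FAT1 had -0.38 and FAT4 -0.59 in condition A, and -0.32 and -0.56 averaged over conditions, all called. DESeq2 called 79 genes in condition A, 55 in condition AB, 79 averaged and 9 for the interaction, limma-voom 1 in condition AB and 1 averaged, the fit of 16 libraries 6 and 14, and edgeR with no filter 17 in condition AB. The cause of these differences between tools was not tested.

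Leaving out each calf gave FAT1 with TGFβ2 from -0.20 to 0.078 in shScramble and from -0.11 to 0.22 in shCreb5 cells, and the FAT4 interaction from -0.023 to 0.15. The counts of genes called ran from 0 to 1 in condition A, 0 to 2 in condition AB, 0 to 1 averaged, 1366 to 1926 with TGFβ2 in shScramble and 1962 to 3829 in shCreb5 cells. The exact sign-flip test of the ratio cannot pass with 4 calves and says nothing on stability. For the neighbors, Spearman kept 4 of 5 for FAT1 and 1 of 5 for FAT4. CREB5 in shScramble cells with TGFβ2 had -0.42 to -0.33 with adjusted p-values from 0.0557 to 0.0627 with a calf left out, beside -0.40 and 0.0195. A model of the interaction with terms of calf with shRNA and calf with TGFβ2, added after the data were seen, gave 0.13 for FAT1 and 0.035 for FAT4 and called 0 genes.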
